A study of Mus musculus with 6 samples.

Results

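The messenger RNA of 38 antioxidant and NRF2 target genes was examined in mouse hearts after myocardial infarction (MI). The 38 genes were taken from a fixed list of symbols and found through their NCBI gene numbers, and all 38 were listed in every library, out of 17441 genes listed in any library. RNA came from the part of the heart below the ligature, taken 3 days after the operation. The male mice were 12 weeks old, on a C57BL/6 background, and formed 3 groups. WT sham mice were operated on without occlusion of the artery, WT MI mice had the left anterior descending coronary artery ligated, and *Card9* KO MI mice, labelled as lacking the gene for the innate immune adapter CARD9, had the same ligation. Each group had 2 libraries, numbered as replicates. The labels do not say more about what a replicate is, so p-values measure the spread between these libraries, which may be technical. For every gene that spread is pooled over the 3 groups and partly borrowed from other genes. No sham-operated *Card9* KO heart was analysed here. The effects of genotype and of infarction therefore cannot be told apart when *Card9* KO MI is set against WT sham. The values are FPKM, the fragments of a gene relative to its length and to all fragments of its library, so levels may be set side by side between genes. Fold changes are differences of the group means of log2(FPKM + 1), which understates the change of genes with few fragments.

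NRF2, encoded by *Nfe2l2*, is the transcription factor that switches on much of the cell's defence against oxidants and electrophiles. In unstressed cells KEAP1 binds NRF2 and hands it to a ubiquitin ligase for breakdown. When oxidants modify the cysteines of KEAP1, NRF2 escapes, enters the nucleus, pairs with a small MAF protein and binds antioxidant response elements near its target genes. NRF2 activity is therefore set mainly at the protein level, which RNA does not measure. The genes under study fall into 8 roles: superoxide dismutases and catalase, glutathione peroxidases, peroxiredoxins with sulfiredoxin, thioredoxins with their reductases, glutathione synthesis and recycling, NADPH supply, conjugation and quinone reduction, and NRF2 with KEAP1. Some are textbook NRF2 targets, such as *Nqo1*, *Gclm*, *Srxn1*, *Txnrd1*, *Slc7a11* and the genes of the pentose phosphate pathway. Others, such as *Sod2*, *Prdx3* and *Gpx4*, guard the mitochondria and membranes of every cell and abound in the heart, a tissue packed with mitochondria.

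The letters that NRF2 is known to favour, TGACNNNGC (N, any base), were looked for on both strands of the RefSeq promoter windows, which run from 250 bases before to 50 bases after a gene's start. Windows of the GRCm38.p6 table were matched for 33 of the 38 genes and located in the mm9 build by their sequence. *Gclc*, *Prdx6*, *Gsr*, *Sod3* and *Gsta4* had no window. The letters were found in 10 of the 33 genes (30.3%), against 14% of all 27025 genes with a window and 17% of the 10336 tested genes with one. They are shown because NRF2 binds such sites near its target genes. The 38 genes came from a fixed list of symbols and were not chosen by this site. The match is in capitals, with 10 bases on either side, each read 5′ to 3′ on the strand that carries it:
*Nfe2l2* (chr2:75542942-75542970, minus strand): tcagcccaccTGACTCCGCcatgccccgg
*Srxn1* (chr2:151931278-151931306, minus strand): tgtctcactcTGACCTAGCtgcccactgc
*Gclm* (chr3:121948331-121948359, minus strand): tcgtgagagtTGACGGTGCgcccgggagc
*Prdx1* (chr4:116358061-116358089, minus strand): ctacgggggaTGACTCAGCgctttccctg
*Pgd* (chr4:148540170-148540198, minus strand): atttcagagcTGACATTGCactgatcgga
*Mgst1* (chr6:138088982-138089010, minus strand): ccccgcctccTGACCGTGCcaagccccgc
*Me1* (chr9:86589935-86589963, minus strand): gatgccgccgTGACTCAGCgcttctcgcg
*Txnrd1* (chr10:82321849-82321877, minus strand): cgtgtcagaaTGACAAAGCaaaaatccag
*Sod1* (chr16:90220941-90220969, minus strand): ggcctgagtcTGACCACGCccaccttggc
*G6pdx* (chrX:71674258-71674286, plus strand): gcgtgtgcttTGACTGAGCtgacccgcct

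The matches in *Prdx1* and *Me1* also hold TGACTCA, the letters favoured by AP-1, so 2 of the 10 matches overlap another factor's motif. Of the 10 matches, 3 lay on the strand of the gene and 7 on the opposite strand. The match of *Me1* began 6 bases before the start of the gene and that of *Nfe2l2* 240 bases before it. Those of *Pgd* and *Srxn1* lay after the start of their window's transcript, from base 4 and base 29. *Pgd*, *Mgst1*, *Me1* and *Txnrd1* also had another window without a match. The windows that held the matches of *Pgd* and *Txnrd1* lay inside the gene. A match of these letters describes the sequence and is not evidence of binding. No match was found in the windows of *Nqo1* and *Gstm1*, the genes whose RNA was lower than in WT MI in the libraries with the *Card9* KO label. Their 250 bases before the start are printed for that reason, in the direction of the gene and on the minus strand, and the absence of these letters concerns this window only. *Gstm1* had another window nearer to the body of the gene, likewise without a match, and the farther one is shown:
*Nqo1* (chr8:109927106-109927355): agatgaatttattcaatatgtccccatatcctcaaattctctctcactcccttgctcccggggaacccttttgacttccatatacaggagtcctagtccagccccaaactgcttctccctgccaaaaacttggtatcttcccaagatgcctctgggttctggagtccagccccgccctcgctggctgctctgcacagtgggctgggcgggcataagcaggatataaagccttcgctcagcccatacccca
*Gstm1* (chr3:107820892-107821141): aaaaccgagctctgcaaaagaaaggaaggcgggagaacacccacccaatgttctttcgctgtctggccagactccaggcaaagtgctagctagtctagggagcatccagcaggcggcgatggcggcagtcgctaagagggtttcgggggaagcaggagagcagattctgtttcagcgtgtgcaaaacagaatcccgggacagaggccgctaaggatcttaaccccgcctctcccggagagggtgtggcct

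Before the comparisons, the labels were checked against *Card9* itself. *Card9* was at 0.99 and 1.03 FPKM in WT sham, against 3.39 and 5.08 FPKM in WT MI and 9.85 and 6.94 FPKM in the libraries with the label *Card9* KO MI. The level was thus not lower in the last group than in WT MI, and these are called the KO-labelled libraries in every comparison. The sources used here do not give the deleted part of the gene, so RNA counted outside it would check nothing. The libraries listed 14935 to 15852 genes and held an estimated 2999000 to 4286000 fragments, at which 3 fragments on a 2 kb transcript are worth 0.35 to 0.50 FPKM. The lowest value of any of the 38 genes was 2.20 FPKM, that of *Gpx7* in WT sham replicate 2. All values were above that limit, which is higher for transcripts shorter than 2 kb. Markers of the labelled tissue were abundant: the 10 cardiomyocyte markers summed to between 24474 and 49321 FPKM in every library.

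The first comparison asked how the antioxidant genes stand in infarcted against uninjured WT hearts. Of the 38 genes, 18 rose in WT MI, 8 fell and 12 did not pass the test (limma on log2(FPKM + 1), adjusted p under 0.05). Over all 13120 genes tested, 27.7% rose and 9.39% fell, or 37.1% in all. The libraries of the groups did not overlap in 19 of the 38 genes on the higher side and 11 on the lower side, against 48.3% and 22.1% of all genes tested. The genes that rose included 4 of the 5 genes of NADPH supply, the cystine importer *Slc7a11*, glutathione reductase *Gsr* and 4 of the 5 glutathione peroxidases. Those that fell were the mitochondrial enzymes *Sod2*, *Prdx3* and *Txn2*, catalase, *Gpx4*, *Prdx5* and the glutathione transferases *Gstm1* and *Mgst3*. The median log2 fold change was 0.38 over the 38 genes and 0.19 over all genes tested. Under upper-quartile scaling the median over all genes was −0.03 and 14 of the 38 genes rose and 12 fell, and under quantile normalization the median was −0.08 and 15 rose and 10 fell. The share of all calls that were higher was 74.7% as deposited, 51.04% under upper-quartile scaling and 48.32% under quantile normalization. *Gclm*, *Gss* and *Nfe2l2* lost their call under both scalings and *Prdx1* under the first, while all 8 genes that fell kept theirs. *Prdx2* and *Me1* were also called lower under both scalings, and *Sod1* and *Gsto1* under the first. Of the 18 genes that rose, 14 stayed called under both scalings and with any 1 library left out, and of the 8 that fell 3 did (*Prdx3*, *Gstm1* and *Mgst3*).

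**Figure D1:**
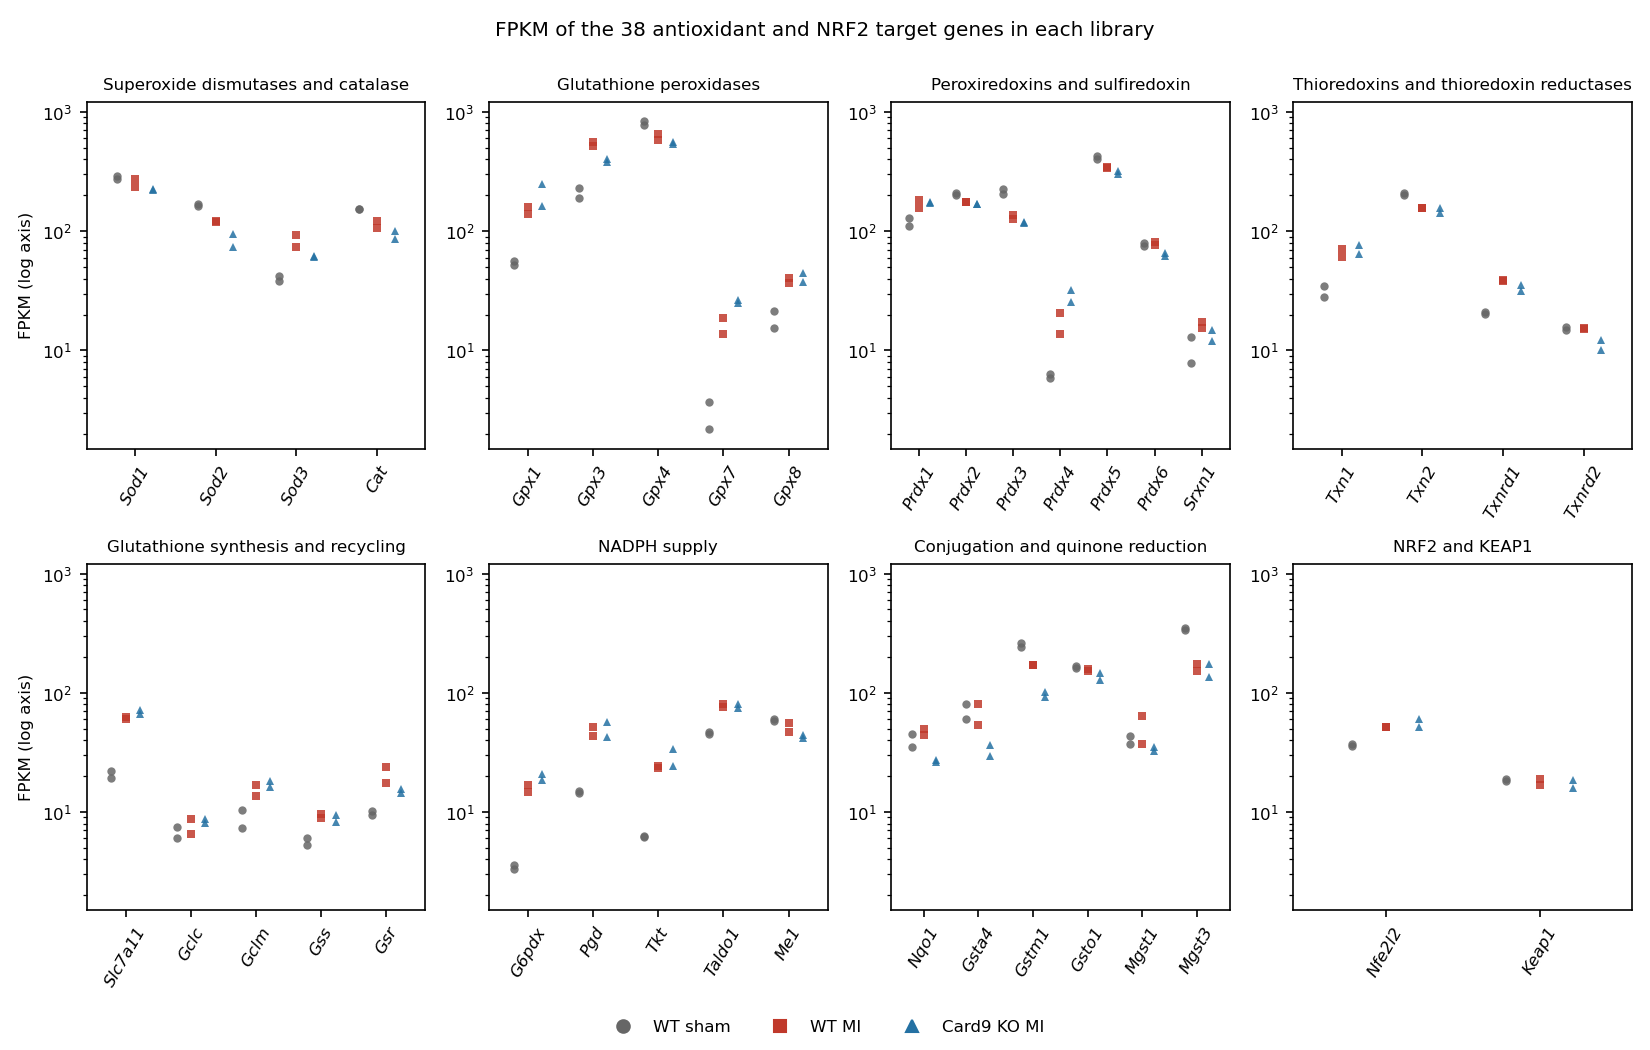
FPKM (log axis) of the 38 genes in each of the 6 libraries, by role; each point is 1 library of WT sham, WT MI or the KO-labelled group. *G6pdx*, *Tkt*, *Pgd* and *Slc7a11* sit higher in all 4 infarct libraries than in both WT sham libraries, while *Gstm1* steps down from WT sham over WT MI to the KO-labelled group.

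Among the 38 genes, the level in the uninjured heart went with the direction of the change. In WT sham 13 of the 38 genes had a mean of at least 100 FPKM, and of these 8 fell and 2 rose in WT MI. Another 8 genes had a mean under 10 FPKM, of which 7 rose and *Gclc* did not pass the test. Over all genes tested, at any level, 27.7% rose and 9.39% fell. The shares of all genes at these levels were not computed, so the pattern may not be particular to the 38 genes. The same WT sham libraries enter the level and the change, so this is a description and no test was made of it. The summed FPKM of the 38 genes was 4296 and 4119 in WT sham and 4153 and 4237 in WT MI, so the groups overlapped in total while their make-up shifted. *Gpx4*, which reduces lipid peroxides in membranes, was the most abundant of the 38 genes in every group and took 19.3% of their sum in WT sham and 14.7% in WT MI. *Gpx3*, the secreted glutathione peroxidase, came next in WT MI with 12.9%.

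The regulators themselves, *Nfe2l2* and *Keap1*, come first. *Nfe2l2* was at 35.49 and 37.29 FPKM in WT sham, against 51.41 and 51.54 FPKM in WT MI and 51.40 and 60.10 FPKM in the KO-labelled libraries. Both WT MI values lay above both WT sham values, with a log2 fold change of 0.49 ± 0.11 (SE) and an adjusted p of 0.0098. The call was lost under upper-quartile scaling (log2 fold change 0.25, adjusted p 0.13) and quantile normalization (0.31, adjusted p 0.062). It was also lost without WT MI replicate 1 or WT MI replicate 2, with a log2 fold change of 0.49 in each case. *Keap1* was at 18.78 and 18.34 FPKM in WT sham, against 18.97 and 17.00 FPKM in WT MI and 15.82 and 18.56 FPKM in the KO-labelled libraries. Its groups overlapped, and its log2 fold change between WT MI and WT sham was −0.04 ± 0.13 (SE, adjusted p 0.81).

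NADPH is the electron donor of glutathione and thioredoxin reductases. Of the 5 genes grouped here under its supply, 4 rose and *Me1* did not pass the test. The 5 are genes of the pentose phosphate pathway and *Me1*, not every source of NADPH. In the further list of the pathway described below, *Idh2* fell from 794.49 and 829.91 to 425.29 and 447.91 FPKM (log2 fold change −0.89, adjusted p 2.9e-04). *Nnt* fell too (−0.91, adjusted p 6.4e-04), and *Idh1* did not pass (−0.04, adjusted p 0.85). *G6pdx*, the entry enzyme of the pentose phosphate pathway, was at 3.34 and 3.61 FPKM in WT sham and at 16.70 and 14.68 in WT MI. The means of 3.48 ± 0.19 and 15.7 ± 1.43 (SD, n = 2 each) differed 4.52-fold, with a log2 fold change of 1.90 ± 0.14 (SE, adjusted p 8.0e-05). *Tkt*, transketolase of the non-oxidative branch, was at 6.27 and 6.23 FPKM in WT sham and 24.21 and 23.47 in WT MI. The *Tkt* groups were far apart, with a log2 fold change of 1.78 ± 0.16 (SE, adjusted p 1.8e-04). *Pgd*, which makes the second NADPH of the oxidative branch, was at 14.48 and 14.96 FPKM in WT sham and 51.51 and 43.50 in WT MI, a log2 fold change of 1.62 ± 0.15 (SE, adjusted p 2.3e-04). *Taldo1*, the most abundant of the 5 over all 6 libraries though below *Me1* in WT sham, was at 47.10 and 45.47 FPKM in WT sham and 79.92 and 75.34 in WT MI. Its log2 fold change of 0.73 ± 0.09 (SE, adjusted p 8.9e-04) was smaller than that of the other 3 called pathway genes. *Me1*, the cytosolic malic enzyme that makes NADPH outside the pentose phosphate pathway, was at 59.70 and 57.74 FPKM in WT sham and 55.35 and 46.69 in WT MI. Under upper-quartile scaling and quantile normalization *Me1* was called lower.

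Glutathione synthesis and recycling moved in the same direction, with 4 of 5 genes higher and *Gclc* not called. *Slc7a11*, the cystine importer that feeds glutathione synthesis, was the most abundant of the role, at 21.93 and 19.40 FPKM in WT sham and 62.41 and 60.81 in WT MI. Its means of 20.7 ± 1.79 and 61.6 ± 1.13 (SD, n = 2 each) differed 2.98-fold, and the log2 fold change was 1.53 ± 0.10 (SE, adjusted p 6.5e-05). *Gsr*, which returns oxidised glutathione to its reduced form, was at 10.18 and 9.39 FPKM in WT sham and 24.05 and 17.49 in WT MI (log2 fold change 1.00, adjusted p 0.0026). Both subunits of glutamate-cysteine ligase, the rate-limiting enzyme of glutathione synthesis, were measured. The modifier subunit *Gclm* rose by 0.72 on the log2 scale (adjusted p 0.018), from 10.37 and 7.32 to 16.70 and 13.50 FPKM. The catalytic subunit *Gclc* did not pass the test: its values of 6.02 and 7.52 FPKM in WT sham and 6.49 and 8.73 in WT MI overlapped. *Gss*, glutathione synthetase, rose by 0.62 on the log2 scale (adjusted p 0.013). The calls of *Gclm* and *Gss* were lost under both other scalings and when WT MI replicate 1 was left out. That of *Gclm* was also lost without WT sham replicate 2 and that of *Gss* without WT sham replicate 1.

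**Figure D2:**
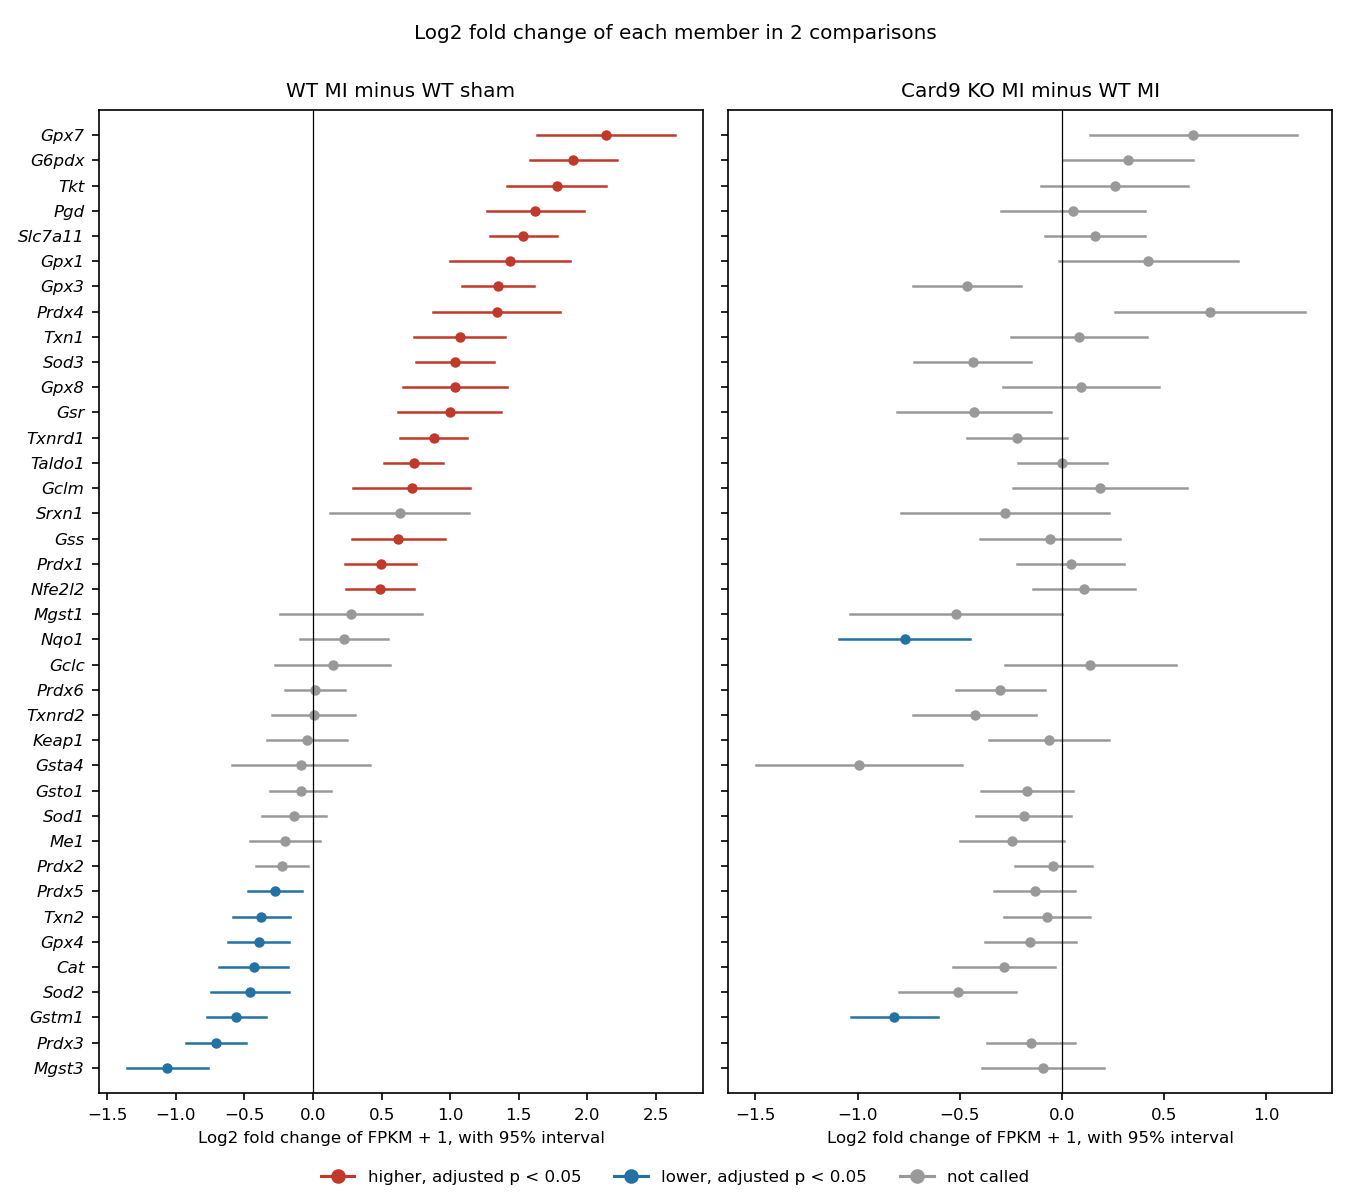
Log2 fold change of FPKM + 1 for the 38 genes between WT MI and WT sham (left) and between the KO-labelled group and WT MI (right); points are estimates of the limma fit with 95% intervals, red for called higher, blue for called lower and grey for not called. On the left 18 genes are called higher and 8 lower, and on the right 0 higher and 2 lower, *Nqo1* and *Gstm1*.

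Among the glutathione peroxidases, which reduce peroxides with glutathione, 4 of 5 rose and 1 fell. *Gpx7*, which resides in the endoplasmic reticulum, had the largest rise of the 38 genes, from 3.69 and 2.20 FPKM in WT sham to 13.61 and 18.87 in WT MI. Its log2 fold change was 2.14 ± 0.22 (SE, adjusted p 3.3e-04) and ran from 1.41 to 2.45 over the other settings. *Gpx1* was at 56.70 and 52.54 FPKM in WT sham and 139.14 and 160.06 in WT MI, a log2 fold change of 1.43 ± 0.19 (SE, adjusted p 0.001). *Gpx3* rose by 1.35 on the log2 scale (adjusted p 1.5e-04), from 231.77 and 191.44 to 513.68 and 565.03 FPKM. *Gpx8*, a membrane protein of the endoplasmic reticulum, rose by 1.03 on the log2 scale (adjusted p 0.0024). *Gpx4* went the other way, from 847.17 and 773.43 FPKM in WT sham to 583.43 and 648.43 in WT MI. The *Gpx4* groups did not overlap and the log2 fold change was −0.40 ± 0.10 (SE, adjusted p 0.015), but the call was lost without WT sham replicate 1 (−0.33) and without WT MI replicate 1 (−0.32).

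The peroxiredoxins, which reduce peroxides through a reactive cysteine, divided: 2 of the 7 genes of this role rose, 2 fell and 3 did not pass. *Prdx4*, the peroxiredoxin of the endoplasmic reticulum, was at 6.29 and 5.87 FPKM in WT sham and 13.71 and 20.75 in WT MI, a log2 fold change of 1.34 ± 0.20 (SE, adjusted p 0.0018). *Prdx1*, cytosolic and NRF2-responsive, rose by 0.49 on the log2 scale (adjusted p 0.012), a call lost without WT sham replicate 2 or WT MI replicate 2. *Prdx3*, found only in mitochondria, fell from 205.47 and 226.98 FPKM to 126.88 and 137.22, a log2 fold change of −0.71 ± 0.09 (SE, adjusted p 0.001). *Prdx5*, the most abundant of the role, was at 424.02 and 405.53 FPKM in WT sham and 337.15 and 347.88 in WT MI. The *Prdx5* groups did not overlap, with a log2 fold change of −0.28 ± 0.09 (SE, adjusted p 0.037), and the call was lost when any WT sham or WT MI library was left out. *Srxn1*, sulfiredoxin, which repairs over-oxidised peroxiredoxins, was at 13.02 and 7.89 FPKM in WT sham and 17.23 and 15.39 in WT MI, which did not pass the test. *Prdx6* overlapped between the groups. *Prdx2* had the same value in both WT MI libraries, 174.53 FPKM, and the same value in both KO-labelled libraries, 169.52 FPKM. Of 691 genes with a mean of at least 100 FPKM it was the 1 gene with such a tie in each of these groups. Like that of every gene, its test partly borrows its spread from other genes.

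Of the thioredoxins and their reductases, 2 rose, 1 fell and 1 did not pass. Cytosolic *Txn1* rose from 27.85 and 34.48 FPKM to 71.31 and 61.28 (log2 fold change 1.07, adjusted p 0.0011). Its reductase *Txnrd1* rose by 0.88 on the log2 scale (adjusted p 6.6e-04), from 20.21 and 21.09 to 39.05 and 38.54 FPKM. Neither mitochondrial gene of the role was called higher. *Txn2*, the most abundant of the role, fell from 208.67 and 199.98 to 156.93 and 156.97 FPKM, a log2 fold change of −0.38 ± 0.09 (SE, adjusted p 0.014). The call of *Txn2* was lost without WT sham replicate 1 or either WT MI library. *Txnrd2* overlapped, at 15.65 and 14.95 FPKM in WT sham and 15.45 and 15.23 in WT MI.

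Of the superoxide dismutases and catalase, 1 rose and 2 fell. *Sod3*, the extracellular superoxide dismutase, was at 41.75 and 38.23 FPKM in WT sham and 74.11 and 92.76 in WT MI (adjusted p 6.5e-04). *Sod2*, the mitochondrial enzyme, fell from 162.80 and 168.54 to 121.75 and 118.62 FPKM, a log2 fold change of −0.46 ± 0.12 (SE, adjusted p 0.022). *Cat*, the peroxisomal catalase, fell from 152.78 and 154.48 to 121.01 and 106.37 FPKM, a log2 fold change of −0.43 ± 0.11 (SE, adjusted p 0.016). Neither pair of groups overlapped, yet the call of *Sod2* was lost when any WT sham or WT MI library was left out, and that of *Cat* without WT sham replicate 1, WT sham replicate 2 or WT MI replicate 2. *Sod1*, cytosolic and the most abundant of the 4, overlapped at 271.37 and 289.29 FPKM in WT sham and 274.77 and 236.21 in WT MI.

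Of the 6 genes of conjugation and quinone reduction, 2 fell and the other 4 did not pass the test. These enzymes couple electrophiles to glutathione or reduce quinones without forming radicals. *Mgst3*, a microsomal glutathione transferase and the most abundant of the role over all 6 libraries, though just below *Gstm1* in WT MI, fell from 347.45 and 337.01 FPKM to 153.69 and 173.90. This was the largest fall of the 38 genes, with means of 342 ± 7.38 and 164 ± 14.3 (SD, n = 2 each) and a log2 fold change of −1.06 ± 0.13 (SE, adjusted p 6.8e-04). *Gstm1*, a cytosolic glutathione transferase, fell by 0.56 on the log2 scale (adjusted p 0.0028). *Nqo1*, the quinone reductase often used to report NRF2 activity, was at 45.08 and 35.05 FPKM in WT sham and 49.67 and 43.83 in WT MI, overlapping between the groups. *Gsta4*, which conjugates the lipid peroxidation product 4-hydroxynonenal, overlapped as well, at 81.15 and 60.71 FPKM against 81.14 and 53.76. *Gsto1* and *Mgst1* did not pass the test.

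The genes were also grouped by the compartment of their protein. The 4 genes listed here as mitochondrial (*Sod2*, *Prdx3*, *Txn2* and *Txnrd2*) summed to 593 and 610 FPKM in WT sham and 421 and 428 in WT MI. Of these genes 3 were called lower. The 3 genes listed here for the endoplasmic reticulum (*Prdx4*, *Gpx7* and *Gpx8*) were all called higher. They summed to 31.5 and 23.6 FPKM in WT sham and 64.0 and 80.2 in WT MI. The microsomal transferases *Mgst3*, which fell (log2 fold change −1.06), and *Mgst1*, which did not pass, were not in this list. The 2 secreted enzymes (*Sod3* and *Gpx3*) were both called higher, from 274 and 230 to 588 and 658 FPKM in sum. Markers of cell types moved in the same comparison. The 11 respiratory chain genes were all called lower, with a sum of 9001 and 9573 FPKM in WT sham and 6186 and 5943 in WT MI. Of the 10 cardiomyocyte markers 7 were called lower, with a sum of 47080 and 49321 FPKM in WT sham and 29599 and 30498 in WT MI. All 10 macrophage markers were called higher, with a sum of 271 and 237 against 904 and 1132 FPKM, and 8 of 10 fibroblast markers were, with a sum of 551 and 527 against 1543 and 2070 FPKM. No marker of these 4 lists was at 0 in any library. All 9 neutrophil markers listed were called higher, with a sum of 8.35 and 5.40 against 251 and 118 FPKM. *Ly6g* was listed in no library, and *Mmp8*, *Trem1*, *Clec4d* and *Il1r2* were at 0 in some. Of 4 erythroid markers tested 3 were called higher, and the 6 listed, of which *Epb42* was at 0 in some library, summed to 1053 and 479 against 1786 and 2922 FPKM. In bulk tissue fewer cells of a type and less RNA per cell cannot be told apart, and the part of these markers in the changes of the antioxidant genes was not tested.

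**Figure D3:**
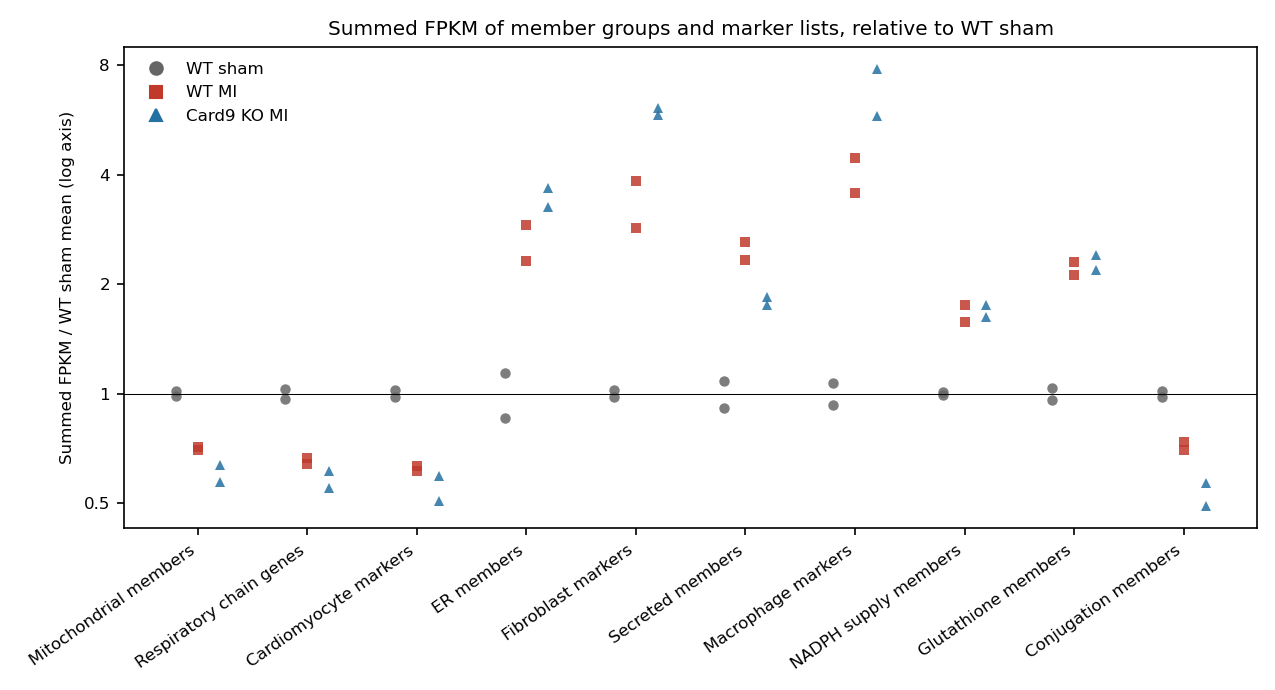
Summed FPKM of groups of the 38 genes and of marker lists in each library, divided by the mean of WT sham (log axis; the line marks 1); each point is 1 library. The genes listed as mitochondrial, respiratory chain genes and cardiomyocyte markers lie below 1 in all 4 infarct libraries. Those listed for the endoplasmic reticulum, secretion, NADPH supply and glutathione lie above it. The compartment lists leave out most of the 38 genes.

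The second comparison asked how the infarcted hearts differed by *Card9* genotype as labelled. Of the 38 genes 2 were lower in the KO-labelled libraries than in WT MI, *Gstm1* and *Nqo1*, and 0 were higher, where 0.587% of all genes tested were called lower and 0.816% higher, or 1.4% in all. At an unadjusted limma p under 0.05, 10 of the 38 genes were lower and 3 higher, against 8.57% and 11.5% of all genes tested, and the recomputed screen of the study's methods called 1 lower and 0 higher. The libraries of the groups did not overlap in 20 of the 38 genes on the lower side and 6 on the higher side, against 21.9% and 30.8% of all genes tested. The median log2 fold change was −0.11 over the 38 genes and 0.04 over all genes tested. Either other scaling gave the same counts of 0 higher and 2 lower, while the share of all calls that were higher was 58.15% as deposited, 46.41% under upper-quartile scaling and 52.7% under quantile normalization.

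*Gstm1* (gene number 14862; mm9 chromosome 3, 107815173 to 107820891, minus strand) had the firmer difference. It was at 243.82 and 262.78 FPKM in WT sham, against 171.44 and 171.02 FPKM in WT MI and 91.82 and 101.61 FPKM in the KO-labelled libraries. The groups stepped down without overlap, with means of 253 ± 13.4, 171 ± 0.30 and 96.7 ± 6.92 FPKM (SD, n = 2 each). The KO-labelled libraries held 56.5% of the WT MI level, a log2 fold change of −0.82 ± 0.09 (SE, adjusted p 0.014). Its adjusted p ran from 0.0093 to 0.14 over the other settings and was over the threshold with no filter on low values, with eBayes without trend, and without WT MI replicate 1, WT MI replicate 2 or KO-labelled replicate 1. The log2 fold change itself stayed between −0.89 and −0.75 when a library was left out.

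*Nqo1* (gene number 18104; mm9 chromosome 8, 109912125 to 109927106, minus strand) was at 49.67 and 43.83 FPKM in WT MI and 26.49 and 27.44 in the KO-labelled libraries. Both latter values were below all 4 WT values, the nearest being 35.05 FPKM in a WT sham library. The means of 46.8 ± 4.13 and 27.0 ± 0.67 FPKM (SD, n = 2 each) gave a log2 fold change of −0.77 ± 0.14 (SE, adjusted p 0.048). This call was at the threshold: the adjusted p ran from 0.034 to 0.28 over the other settings. It was lost with an added FPKM of 0.1, with no filter, with eBayes without trend, with the replicate number as a block, and without any of the 4 infarct libraries. The log2 fold change ranged from −0.86 to −0.68 when a library was left out.

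**Figure D4:**
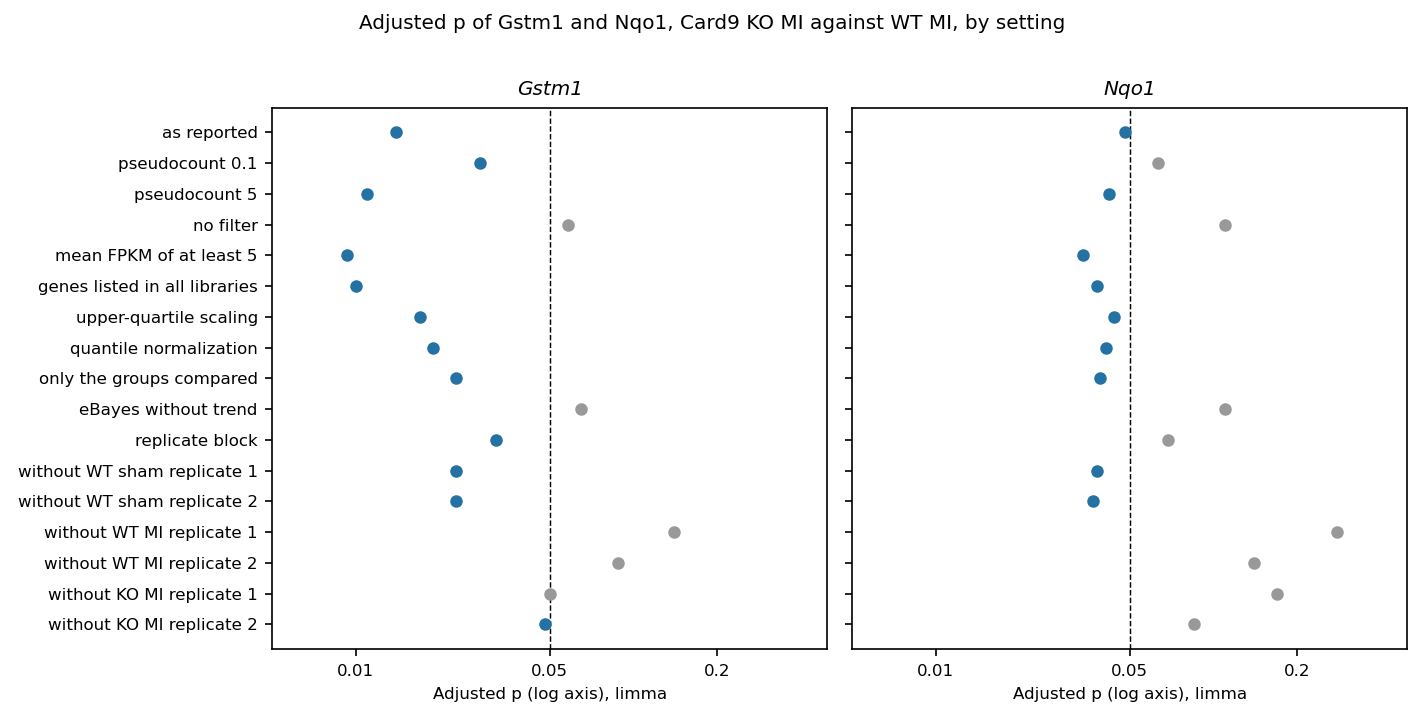
Adjusted p (log axis, limma) of *Gstm1* and *Nqo1* between the KO-labelled group and WT MI under each setting; blue points are under 0.05, the dashed line, and grey points are not. *Gstm1* passes in most settings and *Nqo1* loses its call whenever an infarct library is left out.

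The other 4 genes of conjugation and quinone reduction were also below 0 in this comparison, and the median of the 6 was −0.64, against 0.04 over all genes tested. *Gsta4* had the largest difference of the 38 genes, at 81.14 and 53.76 FPKM in WT MI and 29.32 and 36.40 in the KO-labelled libraries, a level of 48.7%. Its log2 fold change of −0.99 ± 0.22 (SE) did not pass (adjusted p 0.073), and it ran from −1.29 to −0.70 with a library left out. *Gsta4* was the 1 gene of the 38 that the recomputed screen of the study's methods called. *Mgst1* was at 63.74 and 37.18 FPKM in WT MI and 34.97 and 32.50 in the KO-labelled libraries (log2 fold change −0.52, adjusted p 0.25). Without WT MI replicate 1, where *Mgst1* was highest, that value was −0.14. *Gsto1* and *Mgst3* differed less, with 88.9% and 94.2% of the WT MI mean. The 6 genes summed to 673 and 638 FPKM in WT MI and 447 and 519 in the KO-labelled libraries. *Gstm1* has close paralogs next to it, and counting could have split or shared their reads. The 5 tested paralogs (*Gstm2*, *Gstm4*, *Gstm5*, *Gstm6* and *Gstm7*) had log2 fold changes from −0.47 for *Gstm2* to −0.06 for *Gstm6* and did not pass the test.

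**Figure D5:**
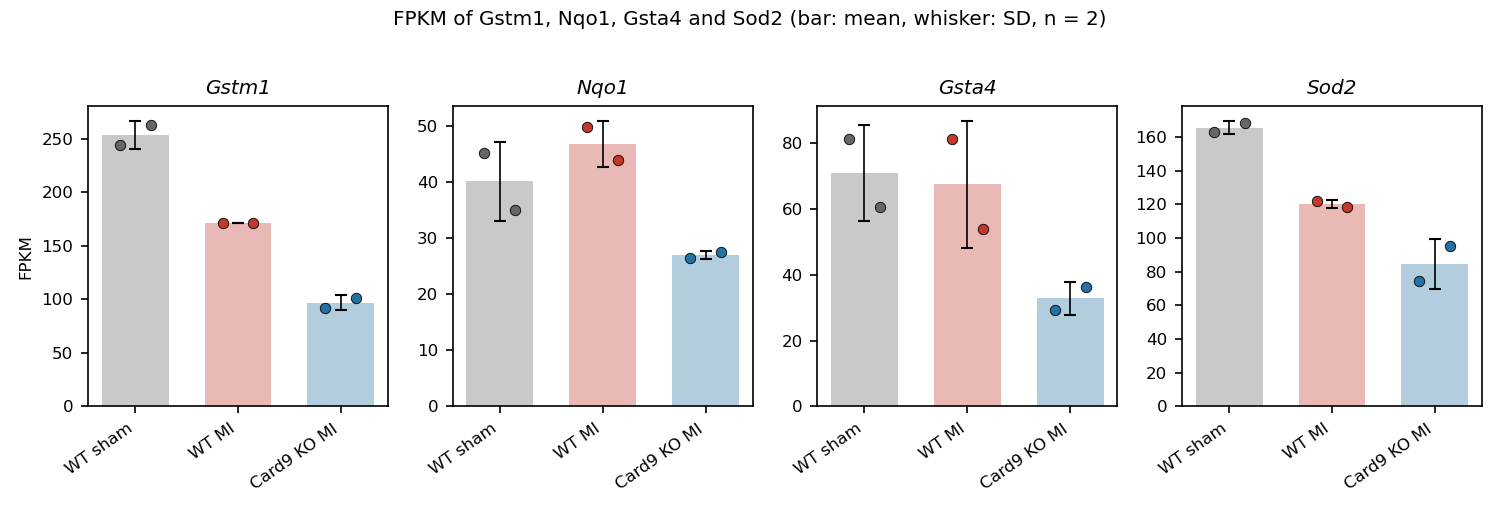
FPKM of *Gstm1*, *Nqo1*, *Gsta4* and *Sod2* in each library; bars are means of 2 libraries, whiskers the SD and points the libraries. In all 4 genes both KO-labelled libraries lie below both WT MI libraries, and only *Gstm1* and *Nqo1* passed the test.

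*Sod2* was at 121.75 and 118.62 FPKM in WT MI and 74.26 and 95.36 in the KO-labelled libraries. The groups did not overlap, but the log2 fold change of −0.51 ± 0.12 (SE) did not pass (adjusted p 0.094). It was −0.69 (adjusted p 0.048) without KO-labelled replicate 2, −0.33 (adjusted p 0.26) without KO-labelled replicate 1 and −0.49 (adjusted p 0.35) without WT MI replicate 1. Both secreted enzymes were lower without passing: *Gpx3* was at 513.68 and 565.03 FPKM in WT MI and 401.57 and 379.17 in the KO-labelled libraries (log2 fold change −0.46, adjusted p 0.094), and *Sod3* differed by −0.44 on the log2 scale (adjusted p 0.12). *Gsr*, with −0.43 on the log2 scale (adjusted p 0.20), and *Txnrd2*, with −0.43 (adjusted p 0.14), did not pass either. Without WT MI replicate 2 the log2 fold change of *Sod3* was −0.28, and without WT MI replicate 1 that of *Gsr* was −0.21.

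On the other side, *Prdx4*, *Gpx7* and *Gpx1* had the largest positive differences. *Prdx4* was at 13.71 and 20.75 FPKM in WT MI and 31.84 and 25.57 in the KO-labelled libraries, a log2 fold change of 0.72 ± 0.20 (SE, adjusted p 0.11). *Gpx7* was at 13.61 and 18.87 FPKM in WT MI and 24.80 and 26.44 in the KO-labelled libraries (log2 fold change 0.64, adjusted p 0.16). Without WT MI replicate 1 these differences were 0.44 for *Prdx4* and 0.42 for *Gpx7*. *Gpx1* had 1 high library, KO-labelled replicate 1 at 249.26 FPKM beside 161.11 in replicate 2, and its log2 fold change of 0.42 (adjusted p 0.27) was 0.11 without that library. *Nfe2l2* did not pass, with a log2 fold change of 0.11 and a 95% interval from −0.14 to 0.36. *Keap1* had −0.06 and an interval from −0.36 to 0.23, and the interval of *Taldo1* ran from −0.22 to 0.22. For *Slc7a11* the interval was −0.08 to 0.41, and for *Gclm* −0.24 to 0.61, so differences of that size cannot be told from none with 2 libraries a group.

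Marker lists moved between the infarct groups too. Fibroblast markers summed to 1543 and 2070 FPKM in WT MI and 3293 and 3156 in the KO-labelled libraries, with 4 of 10 called higher. Of these 10 markers 8 were above 0 and 2 below. The recomputed screen called 4 higher, and at an unadjusted limma p under 0.05 the list had 6 higher and 1 lower. Macrophage markers summed to 904 and 1132 against 1985 and 1471 FPKM, with all 10 above 0 and a median log2 fold change of 0.74. The limma test called 0 of the 10 and the recomputed screen 0, while 7 were higher at an unadjusted p under 0.05. Neutrophil markers summed to 251 and 118 against 79.8 and 59.1 FPKM, with all 9 below 0 and a median log2 fold change of −0.64. Here limma called 0 of the 9, the screen called 3 lower, and 4 were lower at an unadjusted p under 0.05. Erythroid markers summed to 1786 and 2922 against 1779 and 928 FPKM, with all 4 tested below 0 and a median log2 fold change of −0.80. Of these 4 limma called 0 and the screen 1 lower, and 1 was lower at an unadjusted p under 0.05. Cardiomyocyte markers summed to 29599 and 30498 against 24474 and 28534 FPKM, with 1 of 10 called lower. Of these 10 markers 9 were below 0 and 1 above, and 4 were lower at an unadjusted p under 0.05. Respiratory chain genes summed to 6186 and 5943 against 5120 and 5685 FPKM. All 11 were below 0, with a median log2 fold change of −0.17, limma called 0 and 2 were lower at an unadjusted p under 0.05. The part of these markers in the lower *Gstm1* and *Nqo1* was not tested.

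The third comparison set the KO-labelled libraries against WT sham. It shares its WT sham libraries with the first comparison and its infarct libraries with the second. Of the 38 genes 18 were higher and 15 lower, where 34.8% of all genes tested were higher and 14.3% lower, or 49.1% in all. The libraries did not overlap in 19 genes on the higher side and 17 on the lower side, against 51.6% and 24.5% of all genes tested. The 18 higher genes were the same 18 as in WT MI against WT sham. With the other scalings the median over all genes moved from 0.24 to −0.02 (upper-quartile) or −0.10 (quantile), and the counts of the 38 genes to 13 higher and 17 lower or 16 and 16. The share of all calls that were higher was 70.9%, 49.03% and 45.14% in that order. *Gss* and *Gsr* lost their call under both scalings, and *Sod3*, *Prdx1* and *Nfe2l2* under upper-quartile scaling. All 15 lower genes kept theirs, *Gsto1* was also called lower under both scalings and *Keap1* under upper-quartile scaling.

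The largest rises were those of *Gpx7*, *G6pdx*, *Prdx4*, *Tkt* and *Gpx1*, of which *Gpx7*, *G6pdx* and *Tkt* were also among the 5 largest in WT MI. *Gpx7* reached 24.80 and 26.44 FPKM against 3.69 and 2.20 in WT sham, 8.70-fold between the means and a log2 fold change of 2.78 ± 0.22 (SE, adjusted p 6.1e-05). That log2 fold change ran from 1.95 to 3.12 over the other settings. *G6pdx* reached 21.04 and 18.72 FPKM (log2 fold change 2.22, adjusted p 2.6e-05), *Tkt* 33.54 and 24.52 (2.03, adjusted p 5.6e-05) and *Slc7a11* 72.10 and 66.17 (1.70, adjusted p 2.6e-05). *Prdx4*, at 31.84 and 25.57 FPKM, had a log2 fold change of 2.06 ± 0.20 (SE, adjusted p 1.5e-04), and *Gpx1*, at 249.26 and 161.11, had 1.86 ± 0.19 (SE, adjusted p 1.9e-04). *Pgd* was at 56.64 and 42.81 FPKM, a log2 fold change of 1.68 (adjusted p 1.1e-04). *Nfe2l2* was higher by 0.60 on the log2 scale (adjusted p 0.0027). Apart from *Gss* and *Gsr*, no higher gene lost its call when a library was left out.

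*Gstm1* was lowest of all, at 38.2% of the WT sham mean, with a log2 fold change of −1.38 ± 0.09 (SE, adjusted p 3.2e-05), and it was the 1 gene of the 38 called lower in all 3 comparisons. *Mgst3* was at 135.63 and 173.05 FPKM against 347.45 and 337.01 (log2 fold change −1.15, adjusted p 2.8e-04). *Gsta4* was at 29.32 and 36.40 FPKM against 81.15 and 60.71 (log2 fold change −1.08, adjusted p 0.0047). *Sod2* held 51.2% of its WT sham mean (log2 fold change −0.97, adjusted p 5.3e-04) and *Prdx3* 54.9% (−0.86, adjusted p 2.5e-04). All 4 genes listed as mitochondrial were called lower in this comparison, *Txnrd2* among them at 10.16 and 12.23 FPKM against 15.65 and 14.95 (adjusted p 0.028). Respiratory chain markers were lower in 11 of 11 and cardiomyocyte markers in 10 of 10, and their part in these values was not tested. *Nqo1* was lower than in WT sham by a log2 fold change of −0.54 (adjusted p 0.013), which was −0.37 and not called without WT sham replicate 1 and also not called without KO-labelled replicate 1. *Sod1*, *Prdx2*, *Prdx6*, *Txnrd2* and *Me1* also lost their call when certain libraries were left out, so 9 of the 15 lower genes stayed called without any 1 library.

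Over the 3 comparisons, 18 genes were higher in both infarct groups than in WT sham, and 7 genes (*Sod2*, *Cat*, *Gpx4*, *Prdx3*, *Prdx5*, *Txn2* and *Mgst3*) were lower in both without a called difference between them. *Nqo1* was lower than in either WT group. For 6 genes (*Sod1*, *Prdx2*, *Prdx6*, *Txnrd2*, *Me1* and *Gsta4*) the KO-labelled libraries were called lower than WT sham and WT MI was not, but their difference between the infarct groups did not pass. WT MI was called lower too for *Prdx2* and *Me1* under both other scalings, and for *Sod1* under upper-quartile scaling. All of the 6 but *Gsta4* lost their call against WT sham without certain libraries. *Srxn1*, *Gclc*, *Gsto1*, *Mgst1* and *Keap1* were called in no comparison of the values as deposited.

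A further list of 54 genes of the same pathway was set beside these, of which 48 were tested. Between WT MI and WT sham 11 rose and 11 fell, where 27.7% of all genes tested rose and 9.39% fell. In the KO-labelled libraries against WT sham 12 were higher and 16 lower, beside 34.8% and 14.3% of all genes tested. *Hmox1*, heme oxygenase and a textbook NRF2 and BACH1 target, was at 9.33 and 8.92 FPKM in WT sham, against 228.46 and 258.08 FPKM in WT MI and 344.17 and 223.01 FPKM in the KO-labelled libraries. Its rise of 4.59 on the log2 scale (adjusted p 1.1e-05) was above that of any of the 38 genes, and it did not pass between the infarct groups (0.19, adjusted p 0.62). *Ftl1*, ferritin light chain, followed with 2.18 (adjusted p 2.5e-04), and *Abcc1*, a transporter that exports glutathione conjugates, with 0.89 (adjusted p 0.0021). The largest falls were those of the glutathione transferases *Gstp2* (−1.37 on the log2 scale, adjusted p 0.028) and *Gstm7* (−1.06, adjusted p 0.0073) and of *Nnt* (−0.91, adjusted p 6.4e-04), the mitochondrial transhydrogenase that makes NADPH. The *Gstp2* value rests on WT MI replicate 1, at 2.07 FPKM beside 7.15 in replicate 2: without it the log2 fold change was −0.66 (adjusted p 0.055), and the call was also lost without either WT sham library. Between the infarct groups 0 of the 48 passed the limma test, 2 were higher and 7 lower at an unadjusted p under 0.05 (11.5% and 8.57% of all genes tested), and the recomputed screen called 0.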

How the data were processed

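RNA of 6 heart samples was sequenced on an Illumina HiSeq after mRNA enrichment. Per the labels and methods, the authors mapped filtered reads to mm9 with BWA and Bowtie2 and deposited FPKM values (per gene number, 2 decimals, only genes above 0). Annotation, counting tool and strand are not given in the sources used here, so reads of paralogs, pseudogenes and overlapping genes may be shared. Unlisted genes were set to 0. Of the gene numbers, 17390 matched a symbol in a RefSeq table (GRCm38.p6, used for names) and 51 did not. Positions are from GENCODE for mm9.

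Groups came from the sample titles. limma 3.58.1 (R 4.3.3; lmFit, eBayes with trend) was fitted to log2(FPKM + 1) of the 13120 genes with at least 1 FPKM in at least 2 libraries, with all 3 groups in 1 fit and Benjamini-Hochberg adjustment over all genes tested. All 38 genes passed the filter. In simulated data (12920 genes, 200 changed, as between KO-labelled and WT MI libraries) 155 were recovered, 132 of 134 at 2-fold or more, with 17 false calls. The simulated noise was normal with the spread of the fit itself, and changes were placed only in genes above a low level. It therefore checks the calculation and not the calls made in these libraries. Exact permutation of 2 against 2 libraries cannot reach 0.05 and was not used. Fragments per library were estimated from the steps of low FPKM values; 70.9% to 77.2% of these came out whole (tolerance 0.15), so counts were not rebuilt. Estimates cover counting error only.

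Every one of the 38 genes could be named. Full values were given for those called between the infarct groups, the 5 largest calls in each direction of each comparison, *Nfe2l2*, *Keap1* and the most abundant gene of each role; of the other pathway genes, *Hmox1* and the 3 largest calls in each direction. The *Gstm* paralogs, *Idh1* and *Idh2* were added after their values were seen. The settings changed in turn were the pseudocount (0.1 or 5 FPKM), the filter (none, a mean FPKM of at least 5, or genes listed in all libraries), upper-quartile scaling, quantile normalization, only the groups compared, eBayes without trend, a replicate block, a 2-fold limit, a recomputation of the study's NOIseq screen (fold of at least 2, probability of at least 0.8), and each library left out. The genes, lists and tests were chosen with earlier results of these data known. Python 3.11.15, numpy 2.4.6, pandas 2.3.3 and matplotlib 3.10.9 were used.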

Additional observations from a re-analysis of the deposited data

How the results depend on the processing

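With 2 libraries a group, small differences cannot be told from none. Between WT MI and WT sham, the 18 higher and 8 lower of the 38 genes became 11 and 1 with a 2-fold limit, 3 were lower with eBayes without trend and 1 by the recomputed screen, and with a library left out they ran from 15 to 18 and from 3 to 8. The 2 lower between the infarct groups became 0 with a 2-fold limit, no filter or eBayes without trend, and 1 with an added FPKM of 0.1 or a replicate block. Leaving out a library could remove both calls. Without KO-labelled replicate 2 the called genes were not the same, with *Sod2* (log2 fold change −0.69) in place of *Nqo1*. The screen called neither *Gstm1* nor *Nqo1* and 1 other gene, *Gsta4*. Between the KO-labelled libraries and WT sham, 18 and 15 became 9 and 3 with a 2-fold limit and with the screen, and 16 to 18 and 9 to 13 with a library left out.

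Over all genes, the 3637 higher and 1232 lower in WT MI became 1529 and 178 (2-fold), 965 and 142 (screen), 2291 and 2450 (quantile), 2353 lower (upper-quartile), and 2292 to 3528 and 647 to 1221 with a library left out. Between the infarct groups, 107 higher and 77 lower became 61 and 35 (2-fold), 47 and 33 (added 0.1), 200 higher (added 5), 7 and 5 (no filter), 136 lower (mean of at least 5), 48 lower (only the groups compared), 40 and 18 (without trend), 45 and 26 (block), and 5 to 100 and 4 to 68 with a library left out. Between the KO-labelled libraries and WT sham, 4569 and 1875 became 2128 and 416 (2-fold), 1338 and 314 (screen), 3029 and 3149 (upper-quartile) and 2836 and 3447 (quantile). The cause was not tested.

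Of 75 fold changes of single genes among the 38 (those called, those of *Nfe2l2* and *Keap1*, and the larger ones between the infarct groups), 1178 values over the settings kept direction and side of the threshold, 164 lost it, 3 gained it and 5 changed sign. These 5 sign changes were in uncalled values near 0: *Nfe2l2* between the infarct groups (−0.0021 without KO-labelled replicate 2, up to 0.22 with another library left out), and *Keap1* in WT MI against WT sham (−0.12 to 0.03 with a library left out), between the infarct groups (−0.17 to 0.045, with 0.011 also above 0) and in the KO-labelled libraries against WT sham (−0.22 to 0.0001). Outside these 75, uncalled values also changed sign with the scaling. In WT MI against WT sham they were *Prdx6*, *Txnrd2* and *Gclc* (both scalings) and *Nqo1* (upper-quartile), between the infarct groups *Prdx1* and *Taldo1* (upper-quartile), and against WT sham in the KO-labelled libraries *Gclc* (quantile). Same-numbered libraries did not deviate together (r 0.0024, −0.0083 and 0.020), so the numbers were not taken as pairs; with the replicate block 19 and 7, 0 and 1, and 18 and 15 of the 38 genes were called.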
